A study of Mus musculus with 137 samples.

Results

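Crypts and villi of the duodenum were compared within the same mice after 7 days of 180 ppm hexavalent chromium [Cr(VI)] in the drinking water, collected on day 8. The rule for membership was the label: every crypt or villus library of that dose and time whose mouse number occurs in both compartments, which gave 8 of the 137 libraries of the series, from mice 526, 528, 529, and 530. An additional crypt of the group had no villus partner and entered only an alternative fit. The mice were wild-type female B6C3F1 animals, and the exposure was sodium dichromate dihydrate given *ad libitum*. RNA came from formalin-fixed, paraffin-embedded tissue and was measured by TempO-Seq, in which a pair of detector oligonucleotides is ligated on its transcript and the product is counted by sequencing. The untreated mice of day 8 (0 ppm, 5 pairs) and the mice given 180 ppm for 90 days (day 91, 5 pairs) served as reference for the size of the compartment difference, and both are also wild-type female B6C3F1 mice.

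The lining of the small intestine renews itself from the crypts, pits in the mucosa that hold the stem cells, the Paneth cells that secrete antimicrobial peptides, and the rapidly dividing progenitors. Daughter cells leave the crypt, stop dividing, and move up the villus, where absorptive enterocytes with a brush border digest and take up nutrients until they are shed at the tip. Stem cells depend on Wnt signals from the crypt base, whereas bone morphogenetic protein (BMP) signals are stronger toward the villus. Each library here was 1 scraped region of 1 section, the crypt region in one section and the villus region in its neighbor, so it held every cell type of that region. In such bulk samples fewer cells of a type and less RNA per cell cannot be told apart.

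Total counts of the 8 libraries ran from 2589836 to 3915273, with counts for 14035 to 19670 probes in a library. Levels are given as CPM, the counts of a probe per 1000000 counts of a library whose size was scaled by the trimmed mean of M-values (TMM), always in the order of mice 526, 528, 529, and 530. A level compares libraries for 1 gene and not 1 gene with another, because probes differ in efficiency. Among the reference animals, the compartments of the untreated mice 48 and 49 barely separated: their median log2 difference over the Paneth cell products was -0.02 and 0.21, against 1.13 to 1.92 in the other 3 untreated mice. The tests against 0 ppm are therefore also given without these mice.

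Of 10385 genes tested, 1777 (17.1%) differed between crypt and villus at an adjusted p under 0.1, 923 (8.89%) with a higher level in the crypt and 854 (8.22%) with a higher level in the villus. In 1566 genes (15.1%) the 4 crypts and the 4 villi did not overlap, with the crypt above in 896 (8.63%) and the villus above in 670 (6.45%). The crypt was the higher compartment in all 4 mice for 1963 genes (18.9%) and the villus for 1409 (13.6%). The median log2 difference over all genes tested was 0.10. Of the 14308 probes behind these genes, 2220 passed (15.5%), 8.04% being crypt-high and 7.48% villus-high. Without mouse 528, 529, or 530 the count fell to 724, 1104, and 1222, so each of these mice moved it by more than 1.5 times. At an unadjusted p under 0.05 there were 3398 probes. An exact permutation test within 4 pairs cannot give a two-sided p below 0.125, so the adjusted p values rest on the spread estimated across probes.

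**Figure D1:**
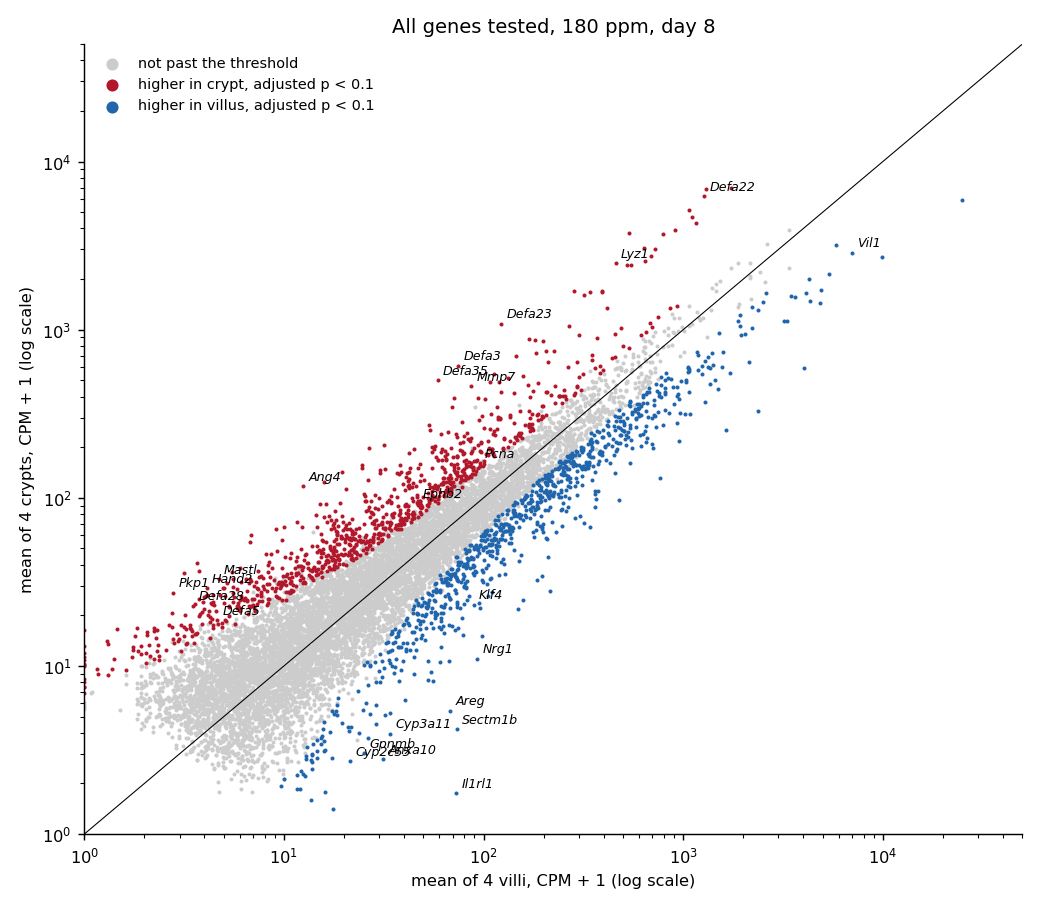
Mean level in the 4 crypts (vertical) against mean level in the 4 villi (horizontal) of every gene tested, as CPM + 1 on log axes, each gene 1 point and the diagonal marking equal levels. The 923 genes higher in the crypt (red) and the 854 higher in the villus (blue) lie on either side, with *Il1rl1* far out on the villus side and the alpha-defensins far out on the crypt side.

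The labelled compartments were first checked against the 8 marker genes that the study itself shows on samples of this series, so their count is not independent evidence of direction. All 8 passed, the 6 crypt markers higher in the crypt and both villus markers higher in the villus. Lysozyme 1 (*Lyz1*), a cell-wall-degrading enzyme of Paneth cells, reached 2171, 2869, 1985 and 2898 CPM in the crypts against 201, 221, 586 and 823 CPM in the villi (log2 difference 2.65 ± 0.32 (SE), adjusted p = 7.79e-05). The lowest crypt lay above the highest villus, and the villi of mice 529 and 530 were higher than those of 526 and 528. Matrix metalloproteinase 7 (*Mmp7*), which cuts alpha-defensins to their active form, was at 532, 473, 329 and 502 CPM in the crypts and 75, 30.1, 119.7 and 117 CPM in the villi (log2 difference 2.52 ± 0.31 (SE), adjusted p = 8.99e-05). Here too the compartments did not overlap. The remaining crypt markers were *Defa22* (2.50, adjusted p = 0.000154), *Defa5* (2.27, adjusted p = 0.0451), the Eph receptor *Ephb2* (1.05, adjusted p = 0.0172), and *Pcna*, the sliding clamp of DNA polymerase (0.79, adjusted p = 0.0396). Under alternative settings of the fit *Defa5* lost the threshold in 5 of 17 and *Pcna* in 5 of 18.

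*Pcna* showed the smallest difference of these markers. Its levels were 148, 166, 165 and 161 CPM in the crypts and 135, 97.7, 70.8 and 74.6 CPM in the villi, and in mouse 526 they were nearly equal. *Vil1*, which encodes the actin-bundling villin of microvilli, was at 3774, 2669, 2165 and 2882 CPM in the crypts and 5943, 6733, 7136 and 8200 CPM in the villi (log2 difference -1.31 ± 0.25 (SE), adjusted p = 0.00259). Every villus exceeded every crypt, although the crypts kept an appreciable level. *Klf4*, a transcription factor of differentiated epithelium, was at 57.7, 5.83, 5.63 and 19.3 CPM in the crypts and 167, 69.7, 48.9 and 66.7 CPM in the villi (log2 difference -2.16 ± 0.35 (SE), adjusted p = 0.000788). The ranges overlapped because both libraries of mouse 526 were high, but the villus was higher within each mouse.

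**Figure D2:**
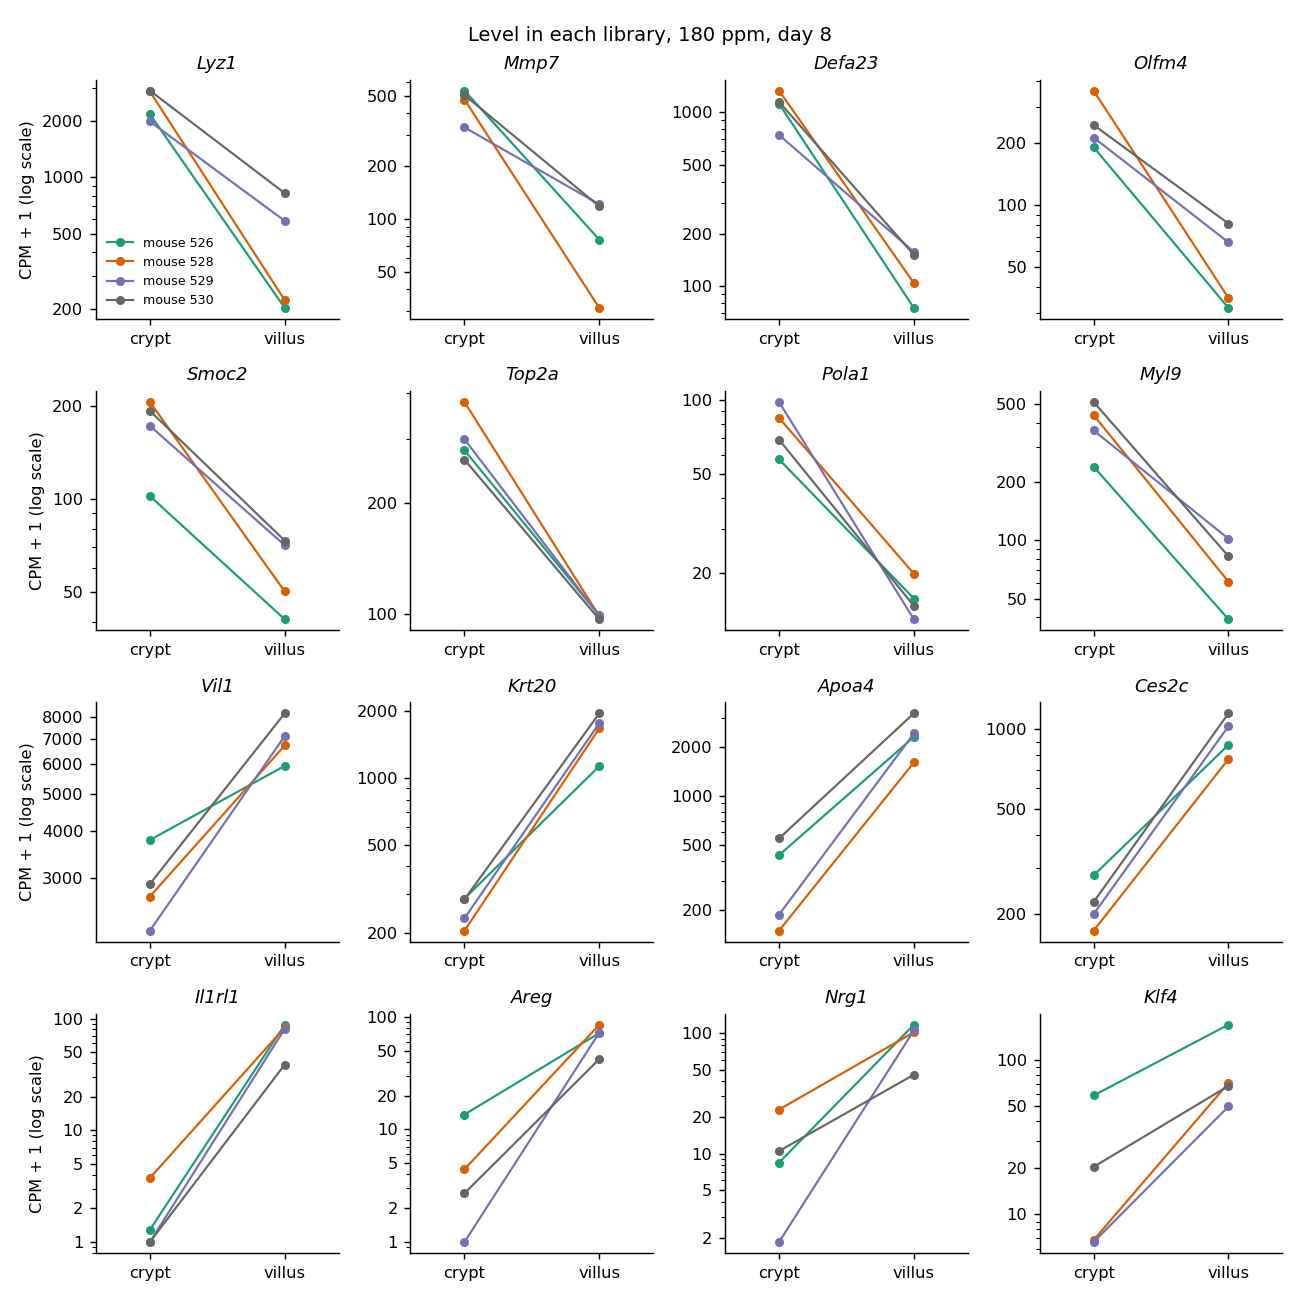
Level of 16 genes in each of the 8 libraries as CPM + 1 on a log axis, with a line joining the crypt and the villus of 1 mouse. The upper 8 panels (Paneth, stem cell, proliferation, and muscle genes) fall from crypt to villus and the lower 8 (brush border, tip, lipid, xenobiotic, and signaling genes) rise in every mouse.

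Paneth cell products had the largest median difference among the epithelial lists. Of 16 products tested, 14 were higher in the crypt and none in the villus, and the median log2 difference was 2.50, against 0.10 over all genes tested. The list includes the study's markers *Lyz1*, *Mmp7*, *Defa5*, and *Defa22*, so its count is not independent of the check above. By mouse the median was 3.09, 3.55, 1.61 and 1.95, smaller in mice 529 and 530. The cryptdins, alpha-defensins stored in Paneth granules, are near-identical copies, so a probe can report a neighbor and the member identity is uncertain. *Defa23* was at 1121, 1334, 741 and 1149 CPM in the crypts and 73.9, 103, 157 and 151 CPM in the villi (log2 difference 3.18 ± 0.27 (SE), adjusted p = 6.84e-06). *Defa3* was at 628, 661, 423 and 720 CPM and 41.8, 29.2, 130.4 and 92.1 CPM (log2 difference 3.18 ± 0.34 (SE), adjusted p = 2.94e-05), and *Defa30* at 4021, 4249, 2590 and 4141 CPM and 472, 335, 617 and 705 CPM (log2 difference 2.84 ± 0.27 (SE), adjusted p = 1.07e-05). For all 3 the crypts lay wholly above the villi, with mouse 529 giving the smallest difference.

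Another pair of defensins stood among the largest differences of the comparison, *Defa35* (3.12, adjusted p = 2.24e-05) and *Defa28* (3.17, adjusted p = 0.0128), the latter at a low level with overlapping ranges. Angiogenin 4 (*Ang4*), a ribonuclease of Paneth cells that kills bacteria, was at 84, 136, 96 and 148 CPM in the crypts and 0, 11.3, 13.3 and 21.3 CPM in the villi (log2 difference 3.40 ± 0.40 (SE), adjusted p = 6.6e-05). It had no count in the villus of mouse 526 and did not overlap. The members that did not pass were *Defa21* and *Mptx1*, the latter with a fitted log2 of -0.51. Of the genes named, *Defa23*, *Defa22*, and *Defa3* lie in the defensin cluster of chromosome 8 (GRCm38). Their positions are chr8:21055047-21056016, chr8:21162277-21163249, and chr8:21287409-21288377, all on the + strand.

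The promoters of a pair of these genes are shown because their probes separated the compartments strongly and because they share letters. Printed are the 250 bases before the RefSeq start (GRCm38.p6), 5′ to 3′ on the gene's strand, *Defa22* at chr8:21162027-21162276 and *Defa23* at chr8:21054790-21055039, both + strand. Capitals mark ATCAAAG, the core that Tcf factors of the Wnt pathway recognize, and TATAAA, the TATA box.
Defa22: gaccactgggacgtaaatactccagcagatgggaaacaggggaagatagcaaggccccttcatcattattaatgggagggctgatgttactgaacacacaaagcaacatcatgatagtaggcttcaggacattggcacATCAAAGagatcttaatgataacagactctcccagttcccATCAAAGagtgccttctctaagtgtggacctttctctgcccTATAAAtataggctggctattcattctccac
Defa23: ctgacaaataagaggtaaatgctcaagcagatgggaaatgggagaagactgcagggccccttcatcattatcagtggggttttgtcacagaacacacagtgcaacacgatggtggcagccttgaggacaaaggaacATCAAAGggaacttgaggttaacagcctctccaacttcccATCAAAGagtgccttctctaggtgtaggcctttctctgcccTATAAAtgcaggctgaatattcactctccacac
In both, ATCAAAG occurs in 2 places and TATAAA once near the start. Searched on both strands, ATCAAAG was in the promoters of 5 of the 11 Paneth products that were tested and had a sequence, against 2.92% of the 7978 tested genes with a sequence and 3.72% of all 27025 genes. TATAAA was in 6 of the 11, against 8.59% of the tested genes. A match is a description of letters and not of binding, and the cryptdin promoters are copies of each other, so they are not independent.

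Among stem cell and Wnt target genes, a list that includes the study's marker *Ephb2*, 9 of 17 tested were higher in the crypt and none in the villus (median log2 difference 1.10). Olfactomedin 4 (*Olfm4*), a secreted marker of crypt base columnar stem cells, was at 190.3, 359.5, 212 and 244 CPM in the crypts and 30.7, 34.4, 65 and 80.4 CPM in the villi (log2 difference 2.29 ± 0.29 (SE), adjusted p = 0.000114). *Smoc2*, another gene of the stem cell signature, was at 101, 205, 172 and 192 CPM and 39.9, 49.3, 69.99 and 72.5 CPM (log2 difference 1.53 ± 0.24 (SE), adjusted p = 0.000608). *Slc12a2*, the sodium-potassium-chloride cotransporter of secreting crypt cells, was at 86.3, 153, 80.5 and 98.6 CPM and 7.02, 32.6, 26.5 and 30.6 CPM (log2 difference 2.14 ± 0.32 (SE), adjusted p = 0.000427). The compartments were apart in all 3. *Axin2*, the feedback inhibitor that reports Wnt signaling, differed less, with 197, 235, 188 and 167 CPM in the crypts and 130.4, 127, 121 and 117 CPM in the villi (log2 difference 0.66 ± 0.21 (SE), adjusted p = 0.0483).

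*Myc*, *Cd44*, *Cdca7*, *Ephb2*, and *Znrf3* also passed, and *Znrf3*, a ligase that removes Wnt receptors, was among 13 genes that passed with no count in any of the 4 villi, where the fitted fold is no bound and is not given. *Lgr5*, the receptor that defines the stem cells, was near the limit of detection with 6.57, 0, 8.73 and 7.81 CPM in the crypts and 0, 1.83, 2.07 and 4.81 CPM in the villi, and did not pass (adjusted p = 0.527). *Ascl2* and *Sox9* were too low to be tested. ATCAAAG was found in the promoter of 1 of 12 tested members of this list.

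Genes of proliferating cells were higher in the crypt wherever they passed the test. Of 32 DNA replication genes tested 21 were higher in the crypt and none in the villus (median log2 difference 1.58), and of 31 mitosis genes 22 were higher in the crypt and none in the villus (median 1.64). By mouse the replication median was 1.34, 1.52, 1.44 and 1.49 and the mitosis median was 1.92, 1.64, 1.45 and 1.46, so the 4 mice lay close together. Cyclin E1 (*Ccne1*), which drives entry into S phase, was at 34, 89.5, 82.5 and 57.4 CPM in the crypts and 4.43, 14, 10.4 and 7.22 CPM in the villi (log2 difference 2.87 ± 0.37 (SE), adjusted p = 0.000119). *Pola1*, the catalytic subunit of the polymerase that primes replication, was at 56.6, 83.6, 97.1 and 68.1 CPM and 14.8, 18.9, 12 and 13.7 CPM (log2 difference 2.33 ± 0.33 (SE), adjusted p = 0.000312), and *Rrm1*, the large subunit of ribonucleotide reductase, at 232, 371, 316 and 337 CPM and 48, 139, 114 and 129 CPM (log2 difference 1.60 ± 0.22 (SE), adjusted p = 0.000215). None of the 3 overlapped between compartments.

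For mitosis, topoisomerase II alpha (*Top2a*), which untangles sister chromatids, was at 278, 377, 298 and 262 CPM in the crypts and 97.9, 97.4, 97.7 and 95.5 CPM in the villi (log2 difference 1.63 ± 0.21 (SE), adjusted p = 0.00012), and the 4 villi were nearly identical. *Cdc20*, an activator of the anaphase-promoting complex, was at 103, 176, 128 and 159 CPM and 22.5, 45.1, 44.3 and 53.6 CPM (log2 difference 1.79 ± 0.25 (SE), adjusted p = 0.00025). The kinesin *Kif20a*, which acts in cytokinesis, was at 89.1, 229.6, 121 and 154 CPM and 31.8, 37.5, 49.7 and 47.8 CPM (log2 difference 1.79 ± 0.27 (SE), adjusted p = 0.000487). All 3 were apart, and the villi still held counts of each. *Mki67*, the gene of the Ki-67 antigen, had a log2 difference of 1.95, adjusted p = 0.000805.

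Proliferation genes are known to share promoter letters, and 2 examples are shown. The 250 bases before the start are those of *Ccnb1* (chr13:100786487-100786736, - strand) and *Cdc20* (chr4:118437344-118437593, - strand). Capitals mark CCAAT, bound by NF-Y, and TTTGAA, the core of the cell cycle homology region.
Ccnb1: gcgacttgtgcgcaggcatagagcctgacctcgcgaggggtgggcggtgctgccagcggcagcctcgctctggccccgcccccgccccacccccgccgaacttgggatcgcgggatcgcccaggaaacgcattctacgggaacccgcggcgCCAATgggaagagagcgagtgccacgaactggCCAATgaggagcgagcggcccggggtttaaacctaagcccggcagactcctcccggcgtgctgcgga
Cdc20: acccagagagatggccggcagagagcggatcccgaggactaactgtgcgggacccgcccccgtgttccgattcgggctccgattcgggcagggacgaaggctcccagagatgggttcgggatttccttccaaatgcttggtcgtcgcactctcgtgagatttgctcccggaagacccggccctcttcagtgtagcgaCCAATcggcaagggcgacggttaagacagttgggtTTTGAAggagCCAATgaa
*Ccnb1*, the gene of cyclin B1, was chosen for its promoter and had 107, 289, 161 and 183 CPM in the crypts and 61.7, 92.3, 48.9 and 111 CPM in the villi (log2 difference 1.21 ± 0.24 (SE), adjusted p = 0.00367), with overlap from the crypt of mouse 526. On either strand CCAAT was in the promoters of 20 of 25 tested mitosis genes with a sequence and 16 of 26 replication genes, against 40.4% of the tested genes and 37.5% of all genes. TTTGAA was in 10 of 25 mitosis genes and 3 of 26 replication genes, against 13% of the tested genes and 18.3% of all genes. Nothing about the factors follows from these matches.

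Ribosome biogenesis genes followed the same direction, with 9 of 21 tested higher in the crypt and none in the villus (median log2 difference 1.02). The nucleolar protein genes *Nop56* (1.52, adjusted p = 0.000415), *Npm1* (1.31, adjusted p = 0.00203), and *Dkc1* (1.77, adjusted p = 0.00266) were among the 9. *Npm1* was at 319.7, 469, 416 and 374 CPM in the crypts and 63.6, 204, 188 and 224 CPM in the villi without overlap. Genes of the Fanconi anemia and homologous recombination pathways, which repair interstrand crosslinks and double-strand breaks, had 4 of 18 tested higher in the crypt and none in the villus (median 0.99). Among them were *Exo1* (1.91, adjusted p = 0.0338), *Brca1* (1.66, adjusted p = 0.0458), and *Fanci*. *Brca1* was at 26.9, 23.7, 37.2 and 24.4 CPM in the crypts and 7.76, 7.92, 4.56 and 14.1 CPM in the villi.

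**Figure D3:**
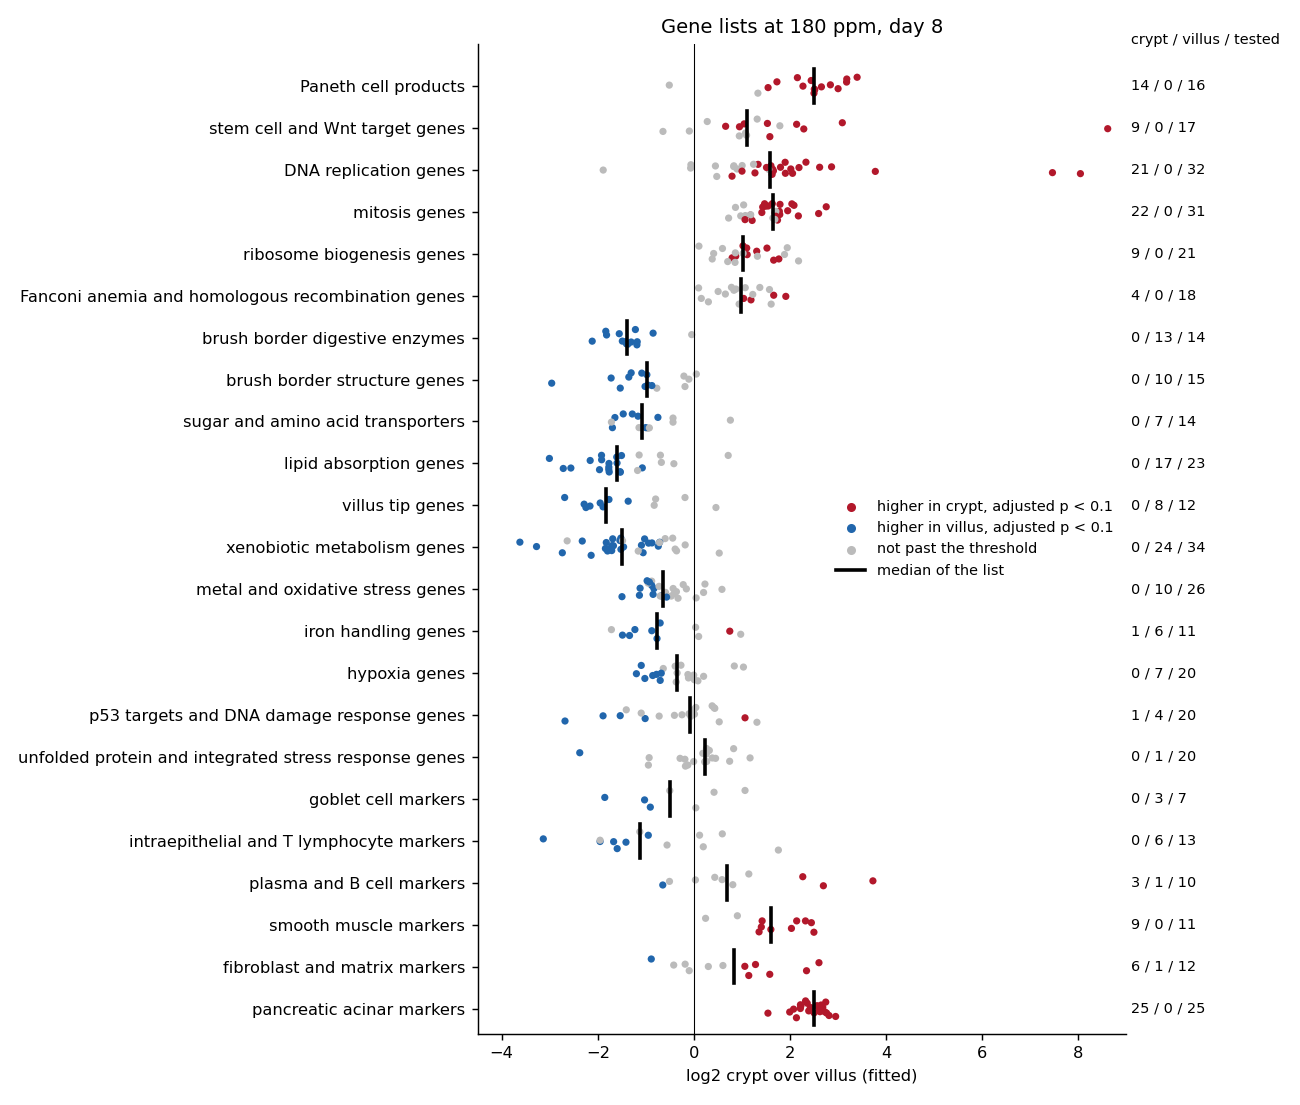
Fitted log2 difference of crypt over villus (horizontal) for every tested gene of 23 lists (rows), red higher in the crypt and blue higher in the villus at an adjusted p under 0.1, gray not past it, with a bar at the median of the list and the counts called in crypt, called in villus, and tested at the right. The medians of Paneth, proliferation, muscle, and acinar lists lie right of 0 and those of digestive, lipid, tip, and xenobiotic lists left of it, and the 3 points beyond 6 are genes with no count in any villus, whose fitted value is no bound.

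On the villus side, the digestive enzymes of the brush border were higher in the villus in 13 of 14 tested, with none higher in the crypt (median log2 difference -1.39). *Akp3*, an intestinal alkaline phosphatase, was at 846, 134, 119 and 161 CPM in the crypts and 2453, 636, 502 and 468 CPM in the villi (log2 difference -1.83 ± 0.21 (SE), adjusted p = 5.87e-05). The ranges overlapped only through the high levels of mouse 526 in both libraries. Neprilysin (*Mme*), a peptidase, was at 137, 59.97, 98 and 124 CPM and 318, 321, 374 and 429 CPM (log2 difference -1.82 ± 0.23 (SE), adjusted p = 0.000111), and the glutamyl transferase *Ggt1* at 647, 326, 215 and 351 CPM and 1104, 847, 865 and 982 CPM (log2 difference -1.40 ± 0.22 (SE), adjusted p = 0.000646). Both were apart. The exception was *Dpp4*, a dipeptidyl peptidase with a fitted log2 of -0.05.

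Enterocyte enzymes are known targets of the nuclear receptor HNF4, so the promoters of a pair of them are shown. They are those of *Treh*, the gene of trehalase (chr9:44672983-44673232, + strand), and *Alpi*, another alkaline phosphatase (chr1:87101607-87101856, - strand), with CAAAGTCC, the core of an HNF4 site, and TATAAA in capitals, or their complements GGACTTTG and TTTATA.
Treh: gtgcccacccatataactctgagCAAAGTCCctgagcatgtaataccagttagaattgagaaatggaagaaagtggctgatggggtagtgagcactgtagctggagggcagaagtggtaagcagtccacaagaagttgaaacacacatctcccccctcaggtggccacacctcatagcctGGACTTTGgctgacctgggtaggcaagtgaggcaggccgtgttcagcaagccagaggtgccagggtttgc
Alpi: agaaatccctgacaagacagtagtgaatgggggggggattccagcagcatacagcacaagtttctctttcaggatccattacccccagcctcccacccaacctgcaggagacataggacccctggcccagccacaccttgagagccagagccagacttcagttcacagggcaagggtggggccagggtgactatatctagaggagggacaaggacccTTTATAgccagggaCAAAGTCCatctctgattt
These 2 genes were chosen because they hold the letters. *Treh* was at 97.7, 22.3, 22.5 and 40.5 CPM in the crypts and 127, 123, 123 and 91.7 CPM in the villi (log2 difference -1.49 ± 0.33 (SE), adjusted p = 0.00688), and *Alpi* at 1155, 366, 399 and 548 CPM and 1961, 1404, 1145 and 1123 CPM (log2 difference -1.31 ± 0.22 (SE), adjusted p = 0.00128), with the crypt of mouse 526 highest among the crypts of both. CAAAGTCC was in the promoters of 4 of 11 tested brush border enzymes with a sequence, against 1.63% of the tested genes and 1.38% of all genes, and in 0 of 18 lipid absorption genes.

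Structural genes of the brush border were higher in the villus in 10 of 15 tested and in the crypt in none (median -0.98). *Cdhr5*, a cadherin that links the tips of microvilli, was at 248, 193, 177 and 198 CPM in the crypts and 496, 541, 503 and 533 CPM in the villi (log2 difference -1.36 ± 0.20 (SE), adjusted p = 0.000362). The scaffold gene *Slc9a3r1* (-1.53, adjusted p = 0.00045) and its partner *Pdzk1* (-2.96, adjusted p = 0.00199) were also apart. *Ezr*, *Myo1d*, *Cdhr2*, *Ush1c*, and *Tjp3* did not pass.

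Sugar and amino acid transporters were higher in the villus in 7 of 14 tested and in the crypt in none (median -1.07). The sodium-glucose transporter *Slc5a1* was at 858, 313, 293 and 539.6 CPM in the crypts and 1029, 1352, 1678 and 1706 CPM in the villi (log2 difference -1.64 ± 0.29 (SE), adjusted p = 0.00173). Its crypt level in mouse 526 was much the highest of the 4, and the difference there was correspondingly small, with log2 differences by mouse of -0.26, -2.11, -2.51 and -1.66. The neutral amino acid transporters *Slc6a19* (-1.47, adjusted p = 0.00238) and *Slc43a2* (-1.70, adjusted p = 0.00124) passed as well. *Slc6a19* too differed least in mouse 526, with -0.34, -2.10, -1.80 and -1.70.

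Lipid absorption genes differed more, with 17 of 23 tested higher in the villus, none in the crypt, and a median log2 difference of -1.61. Apolipoprotein A-IV (*Apoa4*), secreted on chylomicrons, was at 431, 147, 185 and 546 CPM in the crypts and 2295, 1601, 2411 and 3205 CPM in the villi (log2 difference -3.01 ± 0.26 (SE), adjusted p = 6.84e-06). *Apoa1* was at 565, 341, 492 and 975 CPM and 2007, 2828, 4635 and 6538 CPM (log2 difference -2.72 ± 0.26 (SE), adjusted p = 1.15e-05), and *Apoc2* at 46.3, 20.2, 28.4 and 30.3 CPM and 234, 135, 208 and 158 CPM (log2 difference -2.56 ± 0.25 (SE), adjusted p = 1.15e-05). All 3 apolipoproteins were apart. The fatty acid binding proteins *Fabp1* (-1.77, adjusted p = 0.000215) and *Fabp2* (-1.97, adjusted p = 0.0008) passed, as did *Mttp*, *Apob*, *Dgat1*, and *Dgat2* of chylomicron assembly. The sterol transporters *Abcg5*, *Abcg8*, *Npc1l1*, *Scarb1*, and *Abca1* did not pass, nor did *Mogat2*.

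Genes of the villus tip were higher in the villus in 8 of 12 tested and in the crypt in none (median -1.83). Keratin 20 (*Krt20*), of the oldest epithelial cells, was at 285, 204, 232 and 283 CPM in the crypts and 1132, 1678, 1770 and 1961 CPM in the villi (log2 difference -2.69 ± 0.23 (SE), adjusted p = 6.84e-06). The nucleotide-cleaving ectoenzyme *Enpp3* was at 119, 47.6, 35.5 and 79.1 CPM and 418, 238, 298 and 309 CPM (log2 difference -2.25 ± 0.24 (SE), adjusted p = 2.94e-05), and *Creb3l3*, a membrane-bound transcription factor of lipid metabolism, at 635, 359.8, 344 and 443 CPM and 1286, 1348, 1437 and 1880 CPM (log2 difference -1.77 ± 0.23 (SE), adjusted p = 0.00012). No crypt reached the level of any villus for these genes. *Fos*, *Cdkn1a*, *Ceacam20*, and *Xdh* passed too, *Cdkn1a* with 2.86, 20.6, 10.7 and 11.7 CPM in the crypts and 80.2, 35.3, 43.9 and 19.6 CPM in the villi (log2 difference -1.89 ± 0.51 (SE), adjusted p = 0.0238).

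Epithelial transcription factors mostly did not separate the compartments, with 2 of 27 tested higher in the crypt (*Cdx1* and *Nr5a2*), 4 higher in the villus, and a median of -0.33. The 4 were *Klf4*, *Creb3l3*, *Tcf7l2*, and *Hnf4g* (-0.93, adjusted p = 0.00676). *Hnf4a*, *Cdx2*, and *Gata4*, which specify intestinal epithelium, did not pass. Of 14 Wnt and BMP ligands and inhibitors, 1 was higher in the crypt and 3 in the villus. Over all genes tested 8.89% were higher in the crypt and 8.22% in the villus. The crypt counts of both lists lay near that share. The Wnt inhibitor *Sfrp1* was at 13.1, 36.7, 23.7 and 28.3 CPM in the crypts and 4.43, 9.44, 2.07 and 9.28 CPM in the villi (log2 difference 1.99 ± 0.54 (SE), adjusted p = 0.0235), the ligands *Bmp2* (-1.32, adjusted p = 0.0833) and *Bmp4* were higher in the villus, and so was the inhibitory SMAD *Smad7* (-2.12, adjusted p = 0.00383). The call of *Bmp2* was lost in 10 of 18 settings.

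Xenobiotic metabolism had 24 of 34 genes tested higher in the villus, none in the crypt, and a median log2 difference of -1.50. The carboxylesterase *Ces2c* was at 279, 172, 199 and 221 CPM in the crypts and 874, 772, 1028 and 1150 CPM in the villi (log2 difference -2.14 ± 0.21 (SE), adjusted p = 1.34e-05). The cytochromes P450 *Cyp3a13* (log2 difference -2.32 ± 0.24 (SE), adjusted p = 2.27e-05) and *Cyp2c65* (log2 difference -1.82 ± 0.22 (SE), adjusted p = 7.46e-05) were apart in the same way. *Cyp1a1*, the classical target of the aryl hydrocarbon receptor, was low in both, with 4.29, 0, 1.13 and 3.17 CPM and 17.4, 7.61, 22.4 and 12.7 CPM (log2 difference -2.74 ± 0.81 (SE), adjusted p = 0.033). *Cyp2c55* (-3.62, adjusted p = 0.017) and *Cyp3a11* (-3.28, adjusted p = 0.00831) were among the 8 largest villus differences, though the villi of *Cyp3a11* ranged widely, with 12.6, 11, 84.5 and 24.4 CPM.

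Metal and oxidative stress genes were higher in the villus in 10 of 26 tested and in the crypt in none (median -0.63). *Gsta4*, a transferase that removes lipid peroxidation products, was at 232, 78.5, 89.2 and 108 CPM in the crypts and 556, 299, 273 and 256 CPM in the villi (log2 difference -1.50 ± 0.21 (SE), adjusted p = 0.000257). The zinc exporter *Slc30a1* (-1.13, adjusted p = 0.00686), *Gpx4* (-1.12, adjusted p = 0.00707), and metallothionein 2 (*Mt2*, -0.88, adjusted p = 0.0303) followed, whereas *Nqo1*, *Gclc*, *Gclm*, *Gsr*, and *Srxn1*, targets of the antioxidant factor Nrf2, did not pass. Iron handling genes had 6 of 11 higher in the villus and 1 in the crypt, the transferrin receptor *Tfrc*. The iron exporter ferroportin (*Slc40a1*) was at 135, 53.8, 42.2 and 44.2 CPM in the crypts and 377, 208, 127 and 81.8 CPM in the villi (log2 difference -1.49 ± 0.24 (SE), adjusted p = 0.000759), and ferritin heavy chain (*Fth1*) at 2276, 1393, 1518 and 1377 CPM and 3018, 3837, 4995 and 4626 CPM (log2 difference -1.34 ± 0.25 (SE), adjusted p = 0.00254). The ferroportin ranges overlapped and those of ferritin did not. *Heph*, the ferroxidase that works with ferroportin, also passed (-1.23, adjusted p = 0.00726).

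Chromate enters cells through carriers of sulfate and phosphate, and 3 of 7 tested carriers were higher in the villus, none in the crypt (median -0.53). Over all genes tested 8.22% were higher in the villus. Uptake of chromate was not tested. The exchanger *Slc26a6* was at 28.6, 35.3, 23.4 and 36.4 CPM in the crypts and 145, 59.98, 50.9 and 39.9 CPM in the villi (log2 difference -1.13 ± 0.35 (SE), adjusted p = 0.0463). The villus of mouse 526 was far above the other 3. The sodium-sulfate cotransporter *Slc13a1* was at 169, 70.9, 47 and 103 CPM and 214, 158, 129 and 129.5 CPM (log2 difference -0.78 ± 0.24 (SE), adjusted p = 0.0493), and the sulfate transporter *Slc26a2* at 80.6, 59.6, 66.2 and 45.4 CPM and 126, 67.6, 113 and 104 CPM (log2 difference -0.70 ± 0.25 (SE), adjusted p = 0.0842), both with overlapping ranges. These calls were fragile: the threshold was lost in 14 of 18 settings for *Slc26a2*, 7 for *Slc13a1*, and 6 for *Slc26a6*.

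Stress and damage lists were mixed. Of 20 tested p53 targets and damage response genes, 4 were higher in the villus and 1 in the crypt, with a median of -0.08 against 0.10 over all genes tested. The shares over all genes tested were 8.22% higher in the villus and 8.89% in the crypt. *Pmaip1*, whose product Noxa promotes apoptosis, was at 16.6, 27.1, 44.5 and 52.5 CPM in the crypts and 93.9, 110.2, 79.1 and 112 CPM in the villi (log2 difference -1.53 ± 0.30 (SE), adjusted p = 0.00315), and *Gadd45a* was also higher in the villus (-1.02, adjusted p = 0.00797), as were *Plk2* and *Cdkn1a*. *Trp53* itself was higher in the crypt, at 156, 147, 159 and 117 CPM against 44, 77, 87.8 and 70.8 CPM (log2 difference 1.06 ± 0.25 (SE), adjusted p = 0.00957). *Mdm2* did not pass, although its level was higher in the villus in all 4 mice.

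Hypoxia genes were higher in the villus in 7 of 20 tested and in the crypt in none (median -0.36), among them the glycolytic enzymes *Eno1* (-1.10, adjusted p = 0.00144) and *Tpi1* (-0.86, adjusted p = 0.0108) and the regulator *Pfkfb4* (-1.02, adjusted p = 0.023). *Hif1a*, *Ldha*, *Car9*, and *Egln3* passed as well. The share higher in the villus over all genes tested was 8.22%. Near that share, the unfolded protein and integrated stress response had only *Atf3*, a stress-induced transcription factor, past the threshold among 20 tested. Its levels were 0, 0, 7.88 and 2.69 CPM in the crypts and 20.7, 3.65, 19.5 and 10.7 CPM in the villi (log2 difference -2.38 ± 0.88 (SE), adjusted p = 0.0928), with overlap, and it lost the threshold in 13 of 18 settings. The chaperone *Hspa5* was at 3979, 3408, 2257 and 3192 CPM and 2772, 2555, 2492 and 2649 CPM (adjusted p = 0.514) and *Calr* at a log2 of -0.29, adjusted p = 0.498. Antimicrobial and barrier defense genes had 4 of 10 higher in the villus and none in the crypt. They were *Il18* (-1.23, adjusted p = 0.00321), *Reg3g* (-1.02, adjusted p = 0.0232), *Zg16* (-0.91, adjusted p = 0.0413), and *Lypd8*, with *Reg3g* lost in 6 and *Zg16* in 7 of 18 settings.

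The largest differences with a mean of at least 20 CPM in the higher compartment included several signaling genes on the villus side. *Il1rl1*, the receptor for the alarmin interleukin 33, was at 0.286, 2.74, 0 and 0 CPM in the crypts and 87.2, 82.2, 79.9 and 37.8 CPM in the villi (log2 difference -6.68 ± 0.66 (SE), adjusted p = 1.07e-05). The crypts held 1, 8, 0, and 0 counts, so the size of the difference is poorly fixed and ran from -8.99 to -5.18 over the 18 settings, all past the threshold. Every villus was far above every crypt, and both of its probes passed. The gene lies at chr1:40429570-40465415, + strand (GRCm38). Amphiregulin (*Areg*), a ligand of the epidermal growth factor (EGF) receptor, was at 12.6, 3.43, 0 and 1.71 CPM and 70.9, 84.3, 71.6 and 41.2 CPM (log2 difference -3.96 ± 0.52 (SE), adjusted p = 0.000119), and neuregulin 1 (*Nrg1*), a ligand of its relatives ErbB3 and ErbB4, at 7.43, 22.3, 0.845 and 9.52 CPM and 117, 101, 105 and 44.3 CPM (log2 difference -3.23 ± 0.45 (SE), adjusted p = 0.000219). Neither overlapped, and for *Nrg1* all 3 probes passed. Other genes named in this report had probes that did not pass, among them those given next. Of 3 probes tested, 1 passed for *Brca1* and for *Gadd45a*, and 2 passed for *Ggt1*. Of 2 tested, 1 passed for each of *Exo1*, *Cdc20*, *Dkc1*, *Gpx4*, *Klf4*, and *Ephb2*.

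*Sectm1b* was at 0, 0, 3.1 and 9.77 CPM in the crypts and 12.9, 14, 203 and 59.4 CPM in the villi (log2 difference -4.26 ± 0.60 (SE), adjusted p = 0.000225), with the villus of mouse 529 far above the rest. *Anxa10*, an annexin, was at 5.71, 0, 1.41 and 0 CPM and 53.6, 24.1, 33.5 and 10.3 CPM (log2 difference -4.10 ± 0.71 (SE), adjusted p = 0.000976), and *Gpnmb*, a membrane glycoprotein of macrophages among other cells, at 0, 0, 7.88 and 0.244 CPM and 12.2, 17.1, 29.8 and 38.1 CPM (log2 difference -3.65 ± 0.83 (SE), adjusted p = 0.00708). These 3 were apart but rest on low crypt levels, where 3 counts correspond to between 0.732 and 1.03 CPM, and their values ran over the settings from -6.15 to -3.15, -5.43 to -3.80, and -7.44 to -2.89. In the crypt direction, beside the defensins and *Ang4*, stood *Pkp1*, a desmosome component, at 31.1, 46.6, 13.2 and 13.9 CPM and 0.37, 3.05, 3.73 and 0 CPM (log2 difference 3.91 ± 0.79 (SE), adjusted p = 0.00292). *Hand2*, a transcription factor of mesenchyme and enteric neurons, was at 32.9, 31.9, 23.9 and 23.7 CPM and 0, 0, 12.4 and 0 CPM (log2 difference 3.39 ± 0.89 (SE), adjusted p = 0.0155), and *Mastl*, a mitotic kinase, at 15.1, 49.4, 38.3 and 24.2 CPM and 8.13, 2.13, 4.56 and 0 CPM (log2 difference 3.12 ± 0.71 (SE), adjusted p = 0.00701). *Hand2* had no count in 3 of the 4 villi, and its value ran from 2.89 to 9.59 over the settings.

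Markers of cells other than absorptive and crypt epithelium also differed, and their part in the results above was not tested. Smooth muscle markers were higher in the crypt in 9 of 11 tested and in the villus in none (median 1.60). Their summed level was 1800, 2964, 2456 and 3444 CPM in the crypts and 603, 915, 1256 and 1656 CPM in the villi, with no overlap. The myosin light chain *Myl9* was at 238, 439, 365 and 513 CPM and 38.1, 59.98, 101 and 81.4 CPM (log2 difference 2.50 ± 0.23 (SE), adjusted p = 1.07e-05), and *Tpm2* (2.32, adjusted p = 3.99e-05) and *Myh11* (2.14, adjusted p = 0.00012) passed with it. Fibroblast and matrix markers had 6 of 12 higher in the crypt and 1 in the villus, *Pdgfra* (median 0.83). Among them were *Col1a1* (1.28, adjusted p = 0.00192), *Col1a2* (1.14, adjusted p = 0.00524), and *Dcn* (1.58, adjusted p = 0.00242). Of 4 nerve markers only the neuropeptide gene *Vip* passed (3.11, adjusted p = 0.00928), and of 6 endothelial markers none did. Over all genes tested 17.1% passed, and with so few markers no contrast between these cell types is drawn.

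Pancreatic acinar genes, which encode digestive enzymes of an organ next to the duodenum, were higher in the crypt in all 25 tested (median 2.50), yet the compartments overlapped in every one of them. Their summed level was 53590, 79480, 5472 and 22550 CPM in the crypts and 20690, 16180, 1518 and 238 CPM in the villi. Mice 526 and 528 held far more than 529 and 530 in the crypt, and the villus of mouse 530 was nearly free of these transcripts. For example, the phospholipase *Pla2g1b* was at 607, 992, 79.4 and 282 CPM and 218, 199, 12 and 0.344 CPM (log2 difference 2.62 ± 0.44 (SE), adjusted p = 0.00106), with the crypt above the villus in each of the 4 mice. Trypsins and amylases among them are near-identical copies. Brunner gland markers were too low to be tested, with sums of 4.39 to 17.7 CPM in the crypts and 0 to 4.43 CPM in the villi.

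Intraepithelial and T lymphocyte markers had 6 of 13 tested higher in the villus and none in the crypt (median -1.13). *Gzma*, a granzyme, was at 4.86, 24.7, 12.4 and 16.9 CPM in the crypts and 25.1, 37.8, 140 and 45.7 CPM in the villi (log2 difference -1.95 ± 0.44 (SE), adjusted p = 0.00778). *Btnl6* (-1.60, adjusted p = 0.000505) and *Btnl4* (-0.95, adjusted p = 0.0198) are epithelial genes that hold these lymphocytes in place, whereas the defining T cell genes *Cd3e*, *Cd3d*, *Cd3g*, and *Cd4* did not pass. *Btnl4* alone had 627, 295, 244 and 290 CPM in the crypts and 563.5, 661, 628 and 772 CPM in the villi. The whole list summed to 840, 420.5, 703.5 and 644.5 CPM and 1025, 1061, 1284 and 1364 CPM. Its counts and sums are thus not those of lymphocytes alone. Plasma and B cell markers had 3 of 10 higher in the crypt and 1 in the villus, *Igha*, whereas their summed level was higher in the villus in all 4 mice, with 2256, 2528, 3909 and 2985 CPM in the crypts and 3900, 2906, 4287 and 3121 CPM in the villi. Their median log2 difference by mouse was -0.31, -0.20, 1.21 and 0.70, so no common direction is drawn for the list. *Ms4a1*, the CD20 antigen of B cells, was at 0, 0, 118 and 41.5 CPM in the crypts and 0, 0, 4.56 and 6.19 CPM in the villi (log2 difference 3.73 ± 0.72 (SE), adjusted p = 0.00335). *Cd79b*, a subunit of the B cell receptor complex, was at 8, 18.5, 325 and 139 CPM and 9.61, 3.05, 17 and 29.9 CPM (log2 difference 2.70 ± 0.51 (SE), adjusted p = 0.00199). Both were high mainly in the crypts of mice 529 and 530.

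The MHC class II genes were not past the threshold in any of 6 tested, and their summed level, 231, 234, 2408 and 1093 CPM in the crypts and 460, 466, 1227 and 1028 CPM in the villi, was also higher in mice 529 and 530 than in mice 526 and 528, in both compartments. Macrophage and dendritic cell markers had 2 of 8 higher in the villus, *Csf1r* (-1.76, adjusted p = 0.0078) and *C1qc* (-1.33, adjusted p = 0.0835), and mast cell markers 1 of 6, *Mcpt2* (-1.01, adjusted p = 0.0339), with *Mcpt1* at -0.42, adjusted p = 0.363. Of 18 settings *C1qc* lost the threshold in 13 and *Mcpt2* in 8. The share higher in the villus over all genes tested was 8.22%. Goblet cell markers had 3 of 7 higher in the villus and none in the crypt, *Clca1* (-1.86, adjusted p = 0.000704), *Fcgbp* (-1.03, adjusted p = 0.00952), and *Zg16*, while the mucin gene *Muc2* did not pass. Of 9 enteroendocrine markers only secretin (*Sct*) passed, at 8.57, 6.17, 6.76 and 6.84 CPM in the crypts and 51, 28, 27.3 and 11 CPM in the villi (log2 difference -1.96 ± 0.52 (SE), adjusted p = 0.0207), and *Chga* was at -0.14, adjusted p = 0.814. None of 5 tuft cell markers passed (*Dclk1*, 0.83, adjusted p = 0.488), and the erythroid marker *Hba-a2* was low and did not pass (0.09, adjusted p = 0.961).

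**Figure D4:**
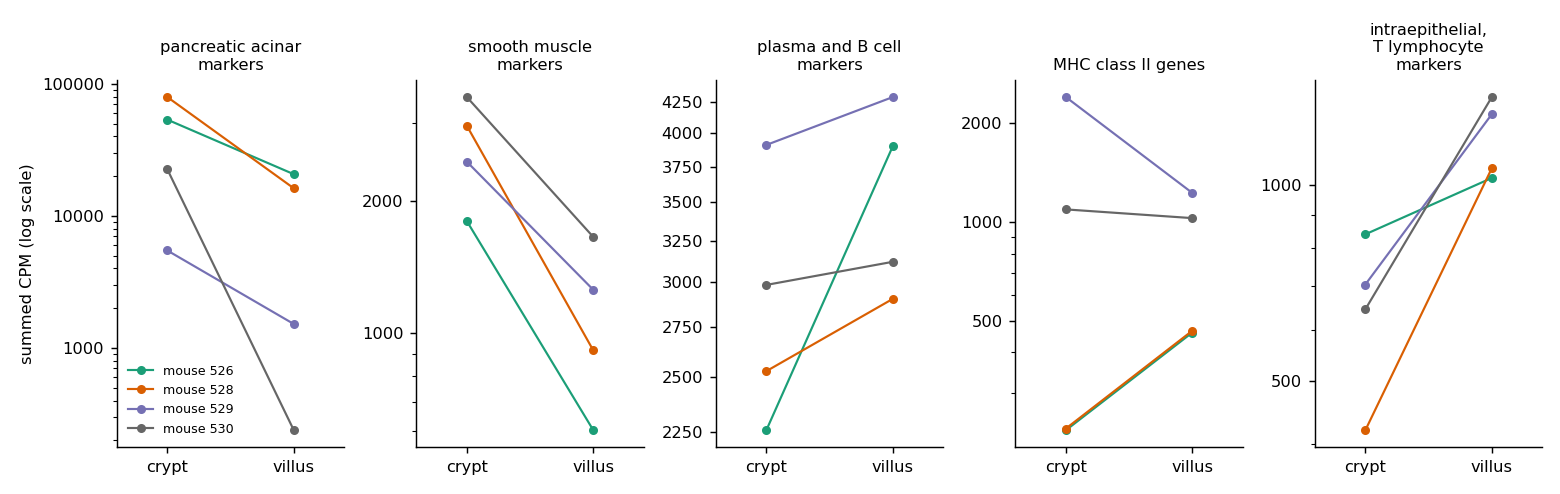
Summed level of 5 marker lists in each of the 8 libraries as CPM on log axes, with a line joining the crypt and the villus of 1 mouse. Acinar and muscle sums fall from crypt to villus in all 4 mice, and MHC class II sums fall only in mice 529 and 530. Sums of the lymphocyte list, which includes the epithelial genes *Btnl4* and *Btnl6*, rise in all 4.

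Whether these differences depended on exposure was tested as an interaction, the log2 difference of crypt over villus at 180 ppm minus that at 0 ppm on day 8, in 1 fit of all mice with both libraries. Of 18725 genes 20 (0.107%) passed, 3 (0.016%) with a larger and 17 (0.0908%) with a smaller value at 180 ppm. By probes 25 of 25989 passed (0.0962%), with 0.0231% larger and 0.0731% smaller, and 1567 had an unadjusted p under 0.05. Without mice 48 and 49 the count was 6 probes, and with dispersions moderated over probes it was 185. Most of the list differences described above were therefore not shown to depend on the dose: of the lists, only lipid absorption (1 gene, *Plin2*) and xenobiotic metabolism (*Ugt1a1* and *Gsta1*) held genes that passed. A p that misses the threshold does not show equal differences.

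Perilipin 2 (*Plin2*), which coats lipid droplets, had the smallest adjusted p (-1.83 ± 0.27 (SE), adjusted p = 0.000202). Untreated libraries had 223 ± 57.2 CPM (SD, n = 5) in the crypt and 213 ± 104 CPM (SD, n = 5) in the villus, on a scaling over all libraries of the series. At 180 ppm they had 145 ± 31.5 CPM (SD, n = 4) and 486 ± 77.5 CPM (SD, n = 4). Without exposure the means of the compartments differed by less than their SDs, and with exposure the villus was higher in each of the 4 mice. The log2 differences by mouse were -1.55, -1.74, -1.93 and -1.79 at 180 ppm and 0.05, 0.71, -0.16, 0.65 and -0.54 in the untreated mice 46 to 50, without overlap. Without mice 48 and 49 the interaction was -1.80, adjusted p = 0.00596. The gene lies at chr4:86648386-86670060, - strand.

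The acyl-CoA-binding protein gene *Dbi* went from 201 ± 19.6 CPM (SD, n = 5) in the crypt and 184 ± 46.6 CPM (SD, n = 5) in the villus without exposure to 138 ± 36.7 CPM (SD, n = 4) and 295 ± 51.4 CPM (SD, n = 4) at 180 ppm (interaction -1.22 ± 0.22 (SE), adjusted p = 0.0118). Its compartment means in the untreated mice differed by less than their SDs over animals, which leave out the pairing. The villus was the higher one at 180 ppm. *Gpd1*, the glycerol-3-phosphate dehydrogenase that links glycolysis to lipid synthesis, was at 2356 ± 776 CPM (SD, n = 5) and 3122 ± 838 CPM (SD, n = 5) without exposure, and at 1335 ± 412 CPM (SD, n = 4) and 3869 ± 440.2 CPM (SD, n = 4) at 180 ppm (interaction -1.10 ± 0.21 (SE), adjusted p = 0.0142). The villus mean of *Gpd1* was already the higher one without exposure. Its log2 difference at 180 ppm, -1.59, was larger in size than the interaction. *Atp5k*, a subunit of ATP synthase, went from 139.9 ± 25.6 CPM (SD, n = 5) and 111 ± 39.5 CPM (SD, n = 5) to 140.4 ± 39.7 CPM (SD, n = 4) and 303 ± 61.6 CPM (SD, n = 4) (interaction -1.44 ± 0.28 (SE), adjusted p = 0.0157). Without mice 48 and 49, *Dbi* (-1.23, adjusted p = 0.0889) stayed past the threshold, whereas *Atp5k* (-1.41, adjusted p = 0.127) and *Gpd1* (-0.73, adjusted p = 0.441) did not.

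The remaining genes with a smaller value at 180 ppm included *Epha2*, *Actb*, *Gapdh*, *Ugt1a1*, *Gsta1*, the chemokine *Cxcl14*, and *Arg2*, and the 3 with a larger value were *Taf8*, *Lztr1*, and *Cgrrf1*. *Actb* and *Gapdh* are often used as reference genes, and here their interaction values were -0.79 ± 0.15 (SE), adjusted p = 0.0157 and -0.81 ± 0.18 (SE), adjusted p = 0.0659. *Cxcl14* had -2.25 ± 0.52 (SE), adjusted p = 0.0748. Without mice 48 and 49 all 20 genes kept their direction and 5 passed, among them *Plin2*, *Dbi*, *Taf8* (2.70, adjusted p = 0.0383), and *Gsta1* (-1.60, adjusted p = 0.091). *Actb* (-0.71, adjusted p = 0.172), *Gapdh* (-0.65, adjusted p = 0.494), *Cxcl14* (-2.34, adjusted p = 0.25), *Epha2*, *Ugt1a1*, *Arg2*, *Lztr1*, and *Cgrrf1* did not pass without them.

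Across the doses of day 8, in the order 0, 0.1, 1.4, 5, 20, 60, and 180 ppm, the mean log2 difference of *Plin2* over mice was 0.14, -0.57, -0.18, -0.37, -1.10, -1.06 and -1.75. Its order was not strict at low doses, but the 3 highest doses had the 3 lowest means. *Il1rl1* had -1.56, -0.52, -1.69, -1.53, -2.46, -2.44 and -5.42 and *Areg* -0.75, -0.48, -0.28, -2.12, -3.11, -2.47 and -4.13, both lowest at 180 ppm, yet with SDs over mice above 1 at most low doses, and neither passed in the interaction. Without mice 48 and 49 the means at 0 ppm were 0.075 for *Plin2*, -1.06 for *Il1rl1*, and -1.50 for *Areg*. In the villus *Il1rl1* was at 9.41 ± 5.73 CPM (SD, n = 5) without exposure and 64.4 ± 20.6 CPM (SD, n = 4) at 180 ppm, and *Areg* at 10.6 ± 5.24 CPM (SD, n = 5) and 60.2 ± 16.8 CPM (SD, n = 4); these are levels side by side without a test.

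**Figure D5:**
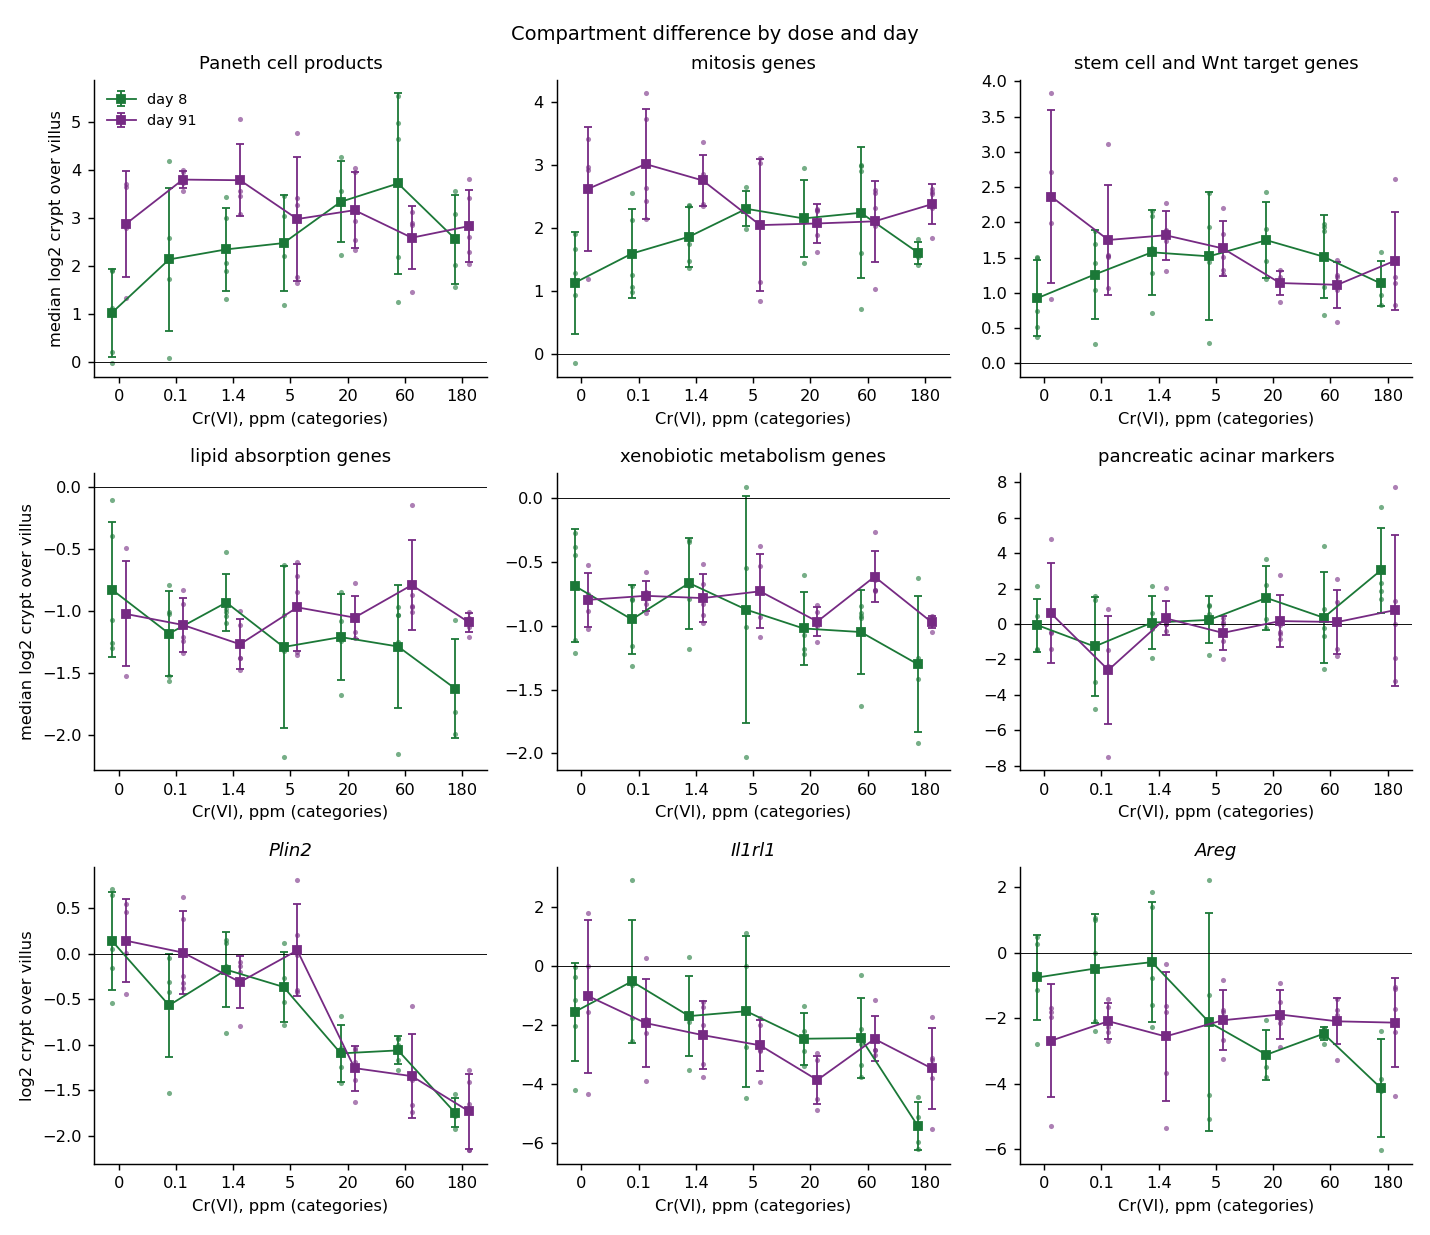
Log2 difference of crypt over villus by Cr(VI) concentration (ppm, spaced as categories) for 6 gene lists (median over the list within a mouse) and 3 genes, on day 8 (green) and day 91 (purple), with a point for each mouse and squares and bars for the mean and SD over 4 or 5 mice. On day 8 *Plin2* falls from 0.14 at 0 ppm to -1.75 at 180 ppm. Of the list means on day 8, those of lipid absorption (-1.63), xenobiotic metabolism (-1.30), and acinar markers (3.03) are furthest from 0 at 180 ppm. In each list the mice at 180 ppm overlap those of other doses.

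The difference at 180 ppm was then compared between days, day 8 minus day 91. Of 18725 genes 2 (0.0107%) passed, both with a larger value on day 8, or 0.0077% of the 25989 probes, and 1275 probes had an unadjusted p under 0.05. With dispersions moderated over probes 127 passed. *H2-DMb1*, a chaperone of MHC class II loading, had 21.1 ± 21.7 CPM (SD, n = 4) in the crypt and 5.28 ± 3.65 CPM (SD, n = 4) in the villus on day 8, against 8.1 ± 2.84 CPM (SD, n = 5) and 29.7 ± 5.42 CPM (SD, n = 5) on day 91 (interaction 3.82 ± 0.64 (SE), adjusted p = 0.00471). *Sh3kbp1*, an adaptor of receptor endocytosis, had 70.3 ± 62.7 CPM (SD, n = 4) and 40.5 ± 23.9 CPM (SD, n = 4) on day 8, against 20.5 ± 7.39 CPM (SD, n = 5) and 51.7 ± 14 CPM (SD, n = 5) on day 91 (interaction 2.02 ± 0.39 (SE), adjusted p = 0.0606). Within day 8 both were highest in the crypts of mice 529 and 530. The crypts had 1.71, 4.11, 51.2 and 36.4 CPM of *H2-DMb1* and 26.6, 24.7, 178 and 84.5 CPM of *Sh3kbp1*. In the same libraries *Ms4a1* and *Cd79b* were high, and the part of B cells in them was not tested. In the fit of these 2 groups alone neither passed (adjusted p = 0.197 for both), and in that fit no probe did, with 1190 at an unadjusted p under 0.05.

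*Snn*, *Hcls1*, and *Ighv2-5* stood next in this comparison without passing. *Snn* had 0, 5.83, 98 and 38.3 CPM in the crypts of day 8 and 0, 0, 4.14 and 6.87 CPM in the villi, the same libraries again being high. *Ighv2-5*, a variable segment of immunoglobulin heavy chains, was at 140.4, 4.57, 4.14 and 8.25 CPM in the villi, where mouse 526 alone was high. The medians of 5 lists stand side by side for both days. Over mice the mean of the Paneth median was 2.56 ± 0.923 (SD, n = 4) on day 8 and 2.83 ± 0.744 (SD, n = 5) on day 91, that of mitosis 1.60 ± 0.176 and 2.37 ± 0.322, and that of lipid absorption -1.63 ± 0.398 and -1.09 ± 0.0778. For fibroblast and matrix markers it was 0.69 ± 0.241 on day 8 and -0.18 ± 0.411 on day 91, and for acinar markers 3.03 ± 2.41 and 0.78 ± 4.27, the latter from -3.24 to 7.74 over mice. These means were not tested against each other. No gene of the mitosis or lipid lists passed in the test between days.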

How the data were processed

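Duodenal crypts and villi were measured by TempO-Seq. The deposited values are raw counts per probe, which the authors made from demultiplexed reads, with up to several probes for a gene; bcl2fastq 2.17.1.14 and Bowtie are named in the submitters' processing notes, and the build of the probe alignment is not given in the sources used here. Libraries with shallow sequencing had been removed by the authors. The table holds 30146 probes of 21450 genes in 137 libraries. Groups came from the labels. A crypt and a villus with the same mouse number come from the same animal, which is where the pairing comes from, and the deviations of the 4 pairs from their group means correlated at 0.21, 0.12, 0.16, and 0.07. Between a crypt and a villus of different mice the correlation ran from -0.17 to 0.14, so not every pair stood above these. Whether mice shared a cage or a dissection day is not given in the sources used here. Replicate libraries of 1 compartment differed by more than the sampling noise of counts, so none was the same library sequenced again. That comparison cannot tell whether separate libraries came from 1 animal.

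Probes that passed filterByExpr were fitted with edgeR 4.0.16 in R 4.3.3 by the quasi-likelihood test, two-sided, with TMM scaling and mouse as a block, and p values were adjusted by Benjamini-Hochberg over all probes tested. The threshold of 0.1 follows the study. Log2 differences are crypt over villus, so negative values are higher in the villus, and errors are SEs of the fit. A gene is represented by its probe with the highest total count. The interactions came from 1 fit of the 132 libraries of 66 mice with both compartments. In that fit, whose design left 52 residual degrees of freedom, moderation over probes gave infinite prior degrees of freedom. The values reported therefore come from each probe's own dispersion, with residual degrees of freedom that edgeR adjusted for each probe. This form was chosen after the counts of both had been seen, and the moderated form, which calls more probes, is an alternative. DESeq2 1.42.0 served as another alternative. The scripts were tested on simulated counts.

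The members and the 37 gene lists were chosen with earlier results of these data known. Genes were named by a rule: the 8 markers of the study, the 8 largest differences in each direction with a mean of at least 20 CPM and the same direction in all 4 mice, 3 genes of each list with the smallest adjusted p (or else the highest level), and 5 genes of each interaction. Some genes that the rule names are not reported here, and they stayed in the fits and in the counts of lists. Genes with values outside this rule (*Ccnb1*, *Treh*, *Alpi*, *Mki67*, *Lgr5*, *Axin2*, *Mt2*, *Cdkn1a*, *Cyp1a1*, *Fabp1*, *Fabp2*, and members named without values), the gene families, scaling without acinar and Paneth probes, and leaving out a mouse in the fits of single contrasts were chosen after values had been seen. Gene positions are from GENCODE M21 (GRCm38) and promoters from RefSeq (GRCm38.p6).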

Additional observations from a re-analysis of the deposited data

Results flagged for a closer look

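In 144 values the 4 mice were compared for a mouse that stood apart from the other 3, by the gap to its neighbor as a share of the whole range, a rule that chance meets in about 1 in 20 groups; 14 values met it. Mouse 526 stood apart in 5 of them, with log2 differences of 0.154 for *Btnl4* (others -1.41 to -1.16), -0.994 for *Cdhr5* (others -1.50 to -1.42), -1.02 for *Creb3l3* (others -2.08 to -1.90), 1.68 for *Ephb2* (others 0.752 to 0.904), and 2.25 for *Rrm1* (others 1.38 to 1.47). Mouse 528 stood apart in 4, with -3.36 for *C1qc* (others -1.09 to -0.712), 4.72 for *Defa28* (others 2.22 to 2.41), 2.04 for *Smoc2* (others 1.28 to 1.39), and 3.26 for *Tpm2* (others 1.94 to 2.03). Mouse 529 gave 0.893 for *Hand2* (others 4.62 to 5.08), -2.17 for *Zg16* (others -0.631 to -0.379), and -1.62 for the median of the enteroendocrine markers (others -0.208 to 0.061). Mouse 530 gave 4.98 for the trypsin gene *Gm2663* (others 1.62 to 2.17) and -3.20 for *Smad7* (others -1.84 to -1.56). Except for *Btnl4*, the lone mouse had the same direction as the other 3 in each of these genes.

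A further 6 values stand here because the compartment difference at 180 ppm on day 8 differed from that of another group in a test of the difference itself. Against 0 ppm 20 genes passed, and those named by the rule and reported here were *Plin2* (-1.83), *Dbi* (-1.22), *Gpd1* (-1.10), and *Atp5k* (-1.44). Without mice 48 and 49 *Gpd1* and *Atp5k* did not pass. Against day 91 they were *H2-DMb1* (3.82) and *Sh3kbp1* (2.02), and neither passed in the fit of the contrast alone. Each is a difference of log2 differences.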

How the results depend on the processing

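The count of 2220 probes that differed between crypt and villus stayed within 1.5 times, at 1515 to 2508, under DESeq2, other size factors, filters, forms of the test, and sets of libraries; leaving out 1 mouse gave 724 (mouse 528), 1104 (mouse 529), 1222 (mouse 530), and 2014 (mouse 526). The libraries of a mouse are paired by animal, and without this block 1613 probes passed. The 106 genes named here that passed the threshold kept their direction in every setting, with 154 losses of the threshold over all settings. Scaling by total counts moved the median of all genes from 0.10 to 0.19. Over the 6 settings in which they were recomputed, 31 of 35 list medians kept their sign, the exceptions being MHC class II, mast cell, tuft cell, and p53 genes.

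The interactions were sensitive to the fit. Against 0 ppm, 25 probes became 38 with DESeq2 size factors, 53 with a mean count of at least 10, 17 with no filter beyond 1 count, 185 with moderated dispersions, 1 in 28 groups without the block, 6 without mice 48 and 49, 61 in the 2 groups of the contrast alone, and 202 there with DESeq2. In these 2 groups the count was 5 without mouse 46, 16 without 47, 75 without 48, 2 without 49, 5 without 50, 97 without 526, 44 without 529, and 3 without 530. *Plin2* passed in each of these fits, whereas *Dbi*, *Gpd1*, and *Atp5k* each lost the threshold in some. Against day 91, 2 probes became 127 with moderated dispersions, 1 in 28 groups, 0 in the contrast alone with edgeR (1190 at an unadjusted p under 0.05), and 58 there with DESeq2. Without 1 mouse the contrast alone gave 56 (mouse 483), 2 (mouse 485 or 526), or 0 (each of the other mice). The cause was not tested. Depth limits genes near 3 counts (0.732 to 1.24 CPM), and intervals of the fit cover these 4 mice only.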

Other observations

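Further gene families were grouped by their symbols after the values had been seen, so their counts are descriptions and carry no test of the family; over all genes tested 8.89% were higher in the crypt and 8.22% in the villus. Replication-dependent histones, which package new DNA in S phase, were higher in the crypt in 35 of 43 tested and in the villus in 1 (median log2 difference 1.69). They are near-identical copies, so the member is uncertain. *Hist1h3g* was at 199, 235, 193 and 195 CPM in the crypts and 30.7, 46, 17.4 and 28.9 CPM in the villi (log2 difference 2.76 ± 0.26 (SE), adjusted p = 1.07e-05), with very similar crypts in the 4 mice. The lone exception, *Hist1h2bc*, was at 120, 81.2, 68.1 and 70.3 CPM and 117, 218, 135 and 210.3 CPM (log2 difference -0.995, adjusted p = 0.0219), with the libraries of mouse 526 nearly equal. Ribosomal protein genes had 12 of 91 higher in the crypt and none in the villus (median 0.29), for example *Rps2* (log2 difference 0.87 ± 0.21 (SE), adjusted p = 0.0134). The 74 subunits of the respiratory chain and ATP synthase had 15 higher in the villus and 2 in the crypt (median -0.32), and fatty acid oxidation enzymes had 8 of 33 higher in the villus and none in the crypt (median -0.52). *Acaa2*, a thiolase of mitochondrial oxidation, was at 631, 555, 584 and 635 CPM in the crypts and 892, 1187, 1536 and 1708 CPM in the villi (log2 difference -1.11 ± 0.21 (SE), adjusted p = 0.00266), without overlap. Of 179 solute carriers 38 were higher in the villus and 8 in the crypt (median -0.23), among them the creatine transporter *Slc6a8* (log2 difference -1.80 ± 0.22 (SE), adjusted p = 0.000105).

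Interferon-induced genes, part of the antiviral response, were higher in the villus in 20 of 66 tested and in the crypt in 1 (median -0.57). *Isg15*, a ubiquitin-like modifier, was at 52, 34.3, 27 and 152 CPM in the crypts and 187, 224, 284 and 673 CPM in the villi (log2 difference -2.46 ± 0.26 (SE), adjusted p = 2.63e-05). Mouse 530 had the highest level in both compartments, and the villus exceeded the crypt in every mouse. *Oasl1* was at 37.1, 27.1, 34.6 and 34.9 CPM and 145, 149.8, 163 and 326 CPM (log2 difference -2.49 ± 0.27 (SE), adjusted p = 2.94e-05), and *Ifit1* at 20.9, 7.54, 12.1 and 16.4 CPM and 90.9, 68.5, 63.4 and 88.3 CPM (log2 difference -2.46 ± 0.33 (SE), adjusted p = 0.000173). The single gene in the other direction was *Ifitm2* (log2 difference 1.41 ± 0.42 (SE), adjusted p = 0.0391). Among interleukins, chemokines, and their receptors 11 of 39 were higher in the villus and 4 in the crypt (median -0.73). The chemokine *Cxcl14* was at 42.3, 13, 16.3 and 12 CPM and 194, 94.1, 143 and 163 CPM (log2 difference -2.91 ± 0.30 (SE), adjusted p = 2.27e-05), and *Il33*, the ligand of the receptor encoded by *Il1rl1*, at 20.3, 13.7, 16.6 and 14.9 CPM and 51.4, 75.5, 85.3 and 33.7 CPM (log2 difference -1.84 ± 0.36 (SE), adjusted p = 0.00274). Of 8 EGF family ligands and receptors 4 were higher in the villus and none in the crypt, namely *Areg*, *Nrg1*, *Hbegf* (log2 difference -2.69 ± 0.95 (SE), adjusted p = 0.0762), and the receptor *Erbb3* (log2 difference -0.87 ± 0.22 (SE), adjusted p = 0.0162). S100 proteins, which bind calcium, had 5 of 9 higher in the villus and none in the crypt. *S100g*, the calcium carrier of duodenal enterocytes, was at 428, 104, 119 and 134 CPM and 779, 562, 804 and 691 CPM (log2 difference -2.09 ± 0.27 (SE), adjusted p = 0.000144), without overlap.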
